A study of Mus musculus with 14 samples.

Results

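The major urinary protein (Mup) genes lie side by side on mouse chromosome 4, and the accessibility of 5 of them, Mup1, Mup3, Mup7, Mup20 and Mup21, was compared between livers lacking matrin-3 and control livers. An ATAC-seq interval, a window of fixed width that the authors took as open chromatin, belonged to a gene if its midpoint lay inside the gene's RefSeq bounds or, failing that, if the gene was the nearest protein-coding gene within 50000 bp. This gave 46 of 88203 intervals in the chow table (8 for Mup1, 16 for Mup3, 5 for Mup7, 16 for Mup20 and 1 for Mup21) and 44 of 105801 in the high-fat table (9, 13, 5, 15 and 2). All of them passed the filter on low counts. Positions are 1-based on chromosome 4 of mm10, where RefSeq places Mup7 at 60066469 to 60070475, Mup1 at 60498012 to 60501960, Mup20 at 62011337 to 62054143, Mup3 at 62083476 to 62087317 and Mup21 at 62147832 to 62150841. The RefSeq table held 24 Mup genes, and all Mup genes together had 185 intervals in the former and 219 in the latter.

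MUPs are lipocalins, small barrel-shaped proteins that hepatocytes secrete and the kidney passes into urine, where they carry volatile pheromones. Their transcription in liver is known to depend on pulses of growth hormone acting through STAT5 and on glucocorticoids, and is higher in males than in females. The central genes of the cluster, to which Mup1 and Mup7 belong, are near-identical copies, whereas Mup20, which encodes the male pheromone protein darcin, Mup3 and Mup21 lie at one edge and are more divergent.

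All 14 animals were female and carried a floxed allele of Matr3, the gene of matrin-3, a DNA- and RNA-binding protein of the nuclear matrix. Knockouts (LKO) also carried Albumin-Cre, a transgene that deletes the floxed part in cells with an active albumin promoter, mainly hepatocytes, so other liver cells keep the gene. Controls had the floxed allele alone. Feeding began at 7 weeks of age and lasted 16 weeks, on chow (3 knockout and 3 floxed mice) or on a diet with 60 kcal% fat (HFD, 4 and 4). A fast of 12 h is described for the HFD animals, and no such statement is made for the chow animals. Nuclei came from 50 mg of frozen whole liver, so fewer cells of a type and less open chromatin per cell cannot be told apart.

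Counts within intervals totalled 15.5 to 35 M per library on chow, where the libraries numbered 2 of both genotypes were the shallowest, and 7.59 to 10.4 M on HFD. At Matr3 itself, chow knockouts had summed counts of 95.2, 89.3 and 89.9 CPM (reads scaled to 1 M per library) and chow floxed mice 99.1, 97.5 and 95.7 CPM. HFD knockouts had 86.3, 80.6, 81.3 and 77.0 CPM and HFD floxed mice 92.9, 105, 74.3 and 85.9 CPM. Matr3 was called in neither diet (edgeR adjusted p = 0.735 and 0.658), and accessibility outside the deleted part does not check the knockout. Every one of 12 hepatocyte marker genes had intervals in both tables. The hepatocyte markers summed to 6400 to 7720 CPM in chow knockouts and 8650 to 10300 CPM in chow floxed mice, without overlap, and to 5130 to 6990 and 4770 to 9010 CPM on HFD. Lymphocyte markers, of which 3 of 11 had intervals on chow and Cd3g and Ms4a1 among others had none, summed to 87.8 to 109 CPM in chow knockouts and 73.4 to 81.8 CPM in chow floxed mice, without overlap. Taken singly, these 3 had a median log2 fold change of knockout over floxed of 0.02, and 1 had an unadjusted edgeR p under 0.05. Kupffer cell, endothelial, stellate and biliary marker sums overlapped between genotypes in both diets, as did lymphocyte markers on HFD. Even so, 9 of 10 Kupffer cell markers were above 0 on HFD (median 0.21, 3 at an unadjusted p under 0.05), against 0 of 8 on chow (median -0.17). The part of these differences in the Mup values below was not tested.

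The promoters of Mup3, Mup21 and Mup7 are shown because all 3 genes were measured and because their letters show how far reads can be told apart in this repeated cluster. They are RefSeq sequences of GRCm38.p6, the assembly mm10 names, from 250 bases before to 50 bases after the gene's start, all on the minus strand: chr4:62087268-62087567 for Mup3, chr4:62150792-62151091 for Mup21 and chr4:60070426-60070725 for Mup7. They are printed 5′ to 3′, and capitals mark the ONECUT core motif ATTGAT, which appears here as its reverse complement ATCAAT. The ONECUT factors include HNF6, a liver transcription factor.
Mup3: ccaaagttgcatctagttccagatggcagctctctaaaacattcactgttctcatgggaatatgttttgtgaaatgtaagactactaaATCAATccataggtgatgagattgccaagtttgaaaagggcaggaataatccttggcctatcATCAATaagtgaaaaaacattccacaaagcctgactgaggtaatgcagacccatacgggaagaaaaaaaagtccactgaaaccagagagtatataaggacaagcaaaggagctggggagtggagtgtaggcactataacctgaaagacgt
Mup21: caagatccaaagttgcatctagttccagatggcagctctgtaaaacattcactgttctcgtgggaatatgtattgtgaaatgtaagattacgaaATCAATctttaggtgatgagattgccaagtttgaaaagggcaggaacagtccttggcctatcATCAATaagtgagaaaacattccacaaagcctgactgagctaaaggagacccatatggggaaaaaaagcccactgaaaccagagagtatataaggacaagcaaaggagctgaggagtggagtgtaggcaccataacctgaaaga
Mup7: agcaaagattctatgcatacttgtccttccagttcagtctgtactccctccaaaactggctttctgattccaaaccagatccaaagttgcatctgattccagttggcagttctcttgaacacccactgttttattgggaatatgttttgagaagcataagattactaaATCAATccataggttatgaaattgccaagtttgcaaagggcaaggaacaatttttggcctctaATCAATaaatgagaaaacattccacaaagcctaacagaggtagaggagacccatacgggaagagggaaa

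Each of the 3 promoters held the ONECUT core 2 times. The motifs of Mup3 spanned positions -162 to -157 and -100 to -95 from the start site, and those of Mup21 spanned -156 to -151 and -94 to -89. In Mup7 they lay nearer to the annotated start, at -82 to -77 and -19 to -14. The spacing from the first base of one motif to the first of the next was 62 bases in Mup3 and Mup21 and 63 bases in Mup7. The same arrangement was found in 14 of the 17 Mup promoters in the table, and the other 3, all of pseudogene-named copies, had no match. Among 32851 RefSeq promoters of this length, searched on both strands, 7.54% held ATTGAT at least once and 0.694% held it 2 or more times. None of the 3 sequences matched TTCNNNGAA (a STAT5 site, in 8.3% of promoters), ACANNNTGT (the core of the glucocorticoid receptor palindrome, 6.85%), TTGCNNAA (a C/EBP core, 10.8%), TATAAA (13.6%) or the HNF1 motif (0.00913%). These are letter matches within 300 bases only.

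Sequence likeness differed between the genes. The promoters of Mup3 and Mup21 were 92.9% identical over 297 aligned columns, and Mup7 was 84.1% identical to Mup3. Mup7 was 95.2% to 98.5% identical to the promoters of 9 central genes from Mup2 to Mup19, over the part that aligned. Of 251 runs of 50 bases in the Mup7 promoter, 11.2% also occurred in another Mup promoter, against 0 of 251 in Mup3 and in Mup21 and up to 99.2% in Mup15. Only the 300-base windows of the 17 Mup promoters were searched, so runs shared with other sequence were not counted. The Mup7 window aligned with those of the 9 central genes over 163 to 217 columns only. The libraries were sequenced as pairs of 150 bases, which is longer than these runs. The sources used here do not state how reads with several equal alignments were counted, so counts of Mup1 and Mup7 may include reads of their copies. The promoters of Mup3 and Mup21 had no shared run in this search, which does not show that their reads are unique. An open interval covered 290 of the 300 promoter bases of Mup3 on chow and 17 on HFD, and all 300 of Mup21 in both tables. For Mup7 the nearest interval was 4209 bases away on chow and 3928 on HFD, and Mup1 and Mup20 have no entry in the promoter table.

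All intervals have 1 width, so the mean CPM per interval is a level that can be set side by side between genes within a table. In chow floxed mice it was 9.0 ± 0.919 CPM for Mup7, 8.46 ± 0.0567 for Mup1, 7.32 ± 0.771 for Mup20, 6.86 ± 2.09 for Mup3 and 6.56 ± 1.24 for Mup21 (SD, n = 3). Only the step from Mup1 to Mup20 in that order exceeded the larger SD of the pair. In chow knockouts the order was Mup3 at 13.1 ± 4.33, Mup7 at 12.9 ± 3.3, Mup1 at 10.2 ± 1.85, Mup20 at 9.88 ± 2.49 and Mup21 at 6.91 ± 0.709 CPM, and only the last step exceeded an SD. Mup3 thus ranked below Mup20 in floxed and above Mup7 in knockout livers. Over all intervals the average was 11.3 CPM (floxed) and 11.4 CPM (knockout).

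On HFD the order in floxed mice was the same, with Mup7 at 9.41 ± 1.18, Mup1 at 8.53 ± 0.428, Mup20 at 8.09 ± 0.851, Mup3 at 6.84 ± 0.892 and Mup21 at 5.73 ± 2.31 CPM per interval (SD, n = 4). In HFD knockouts the levels were 7.81 ± 1.1 for Mup7, 7.04 ± 0.705 for Mup20, 6.78 ± 0.385 for Mup1, 5.47 ± 0.733 for Mup3 and 4.42 ± 1.14 for Mup21. In both HFD groups only the step down to Mup3 exceeded the larger SD. The tables hold different intervals and were scaled separately, so levels are not compared between diets.

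**Figure D1:**
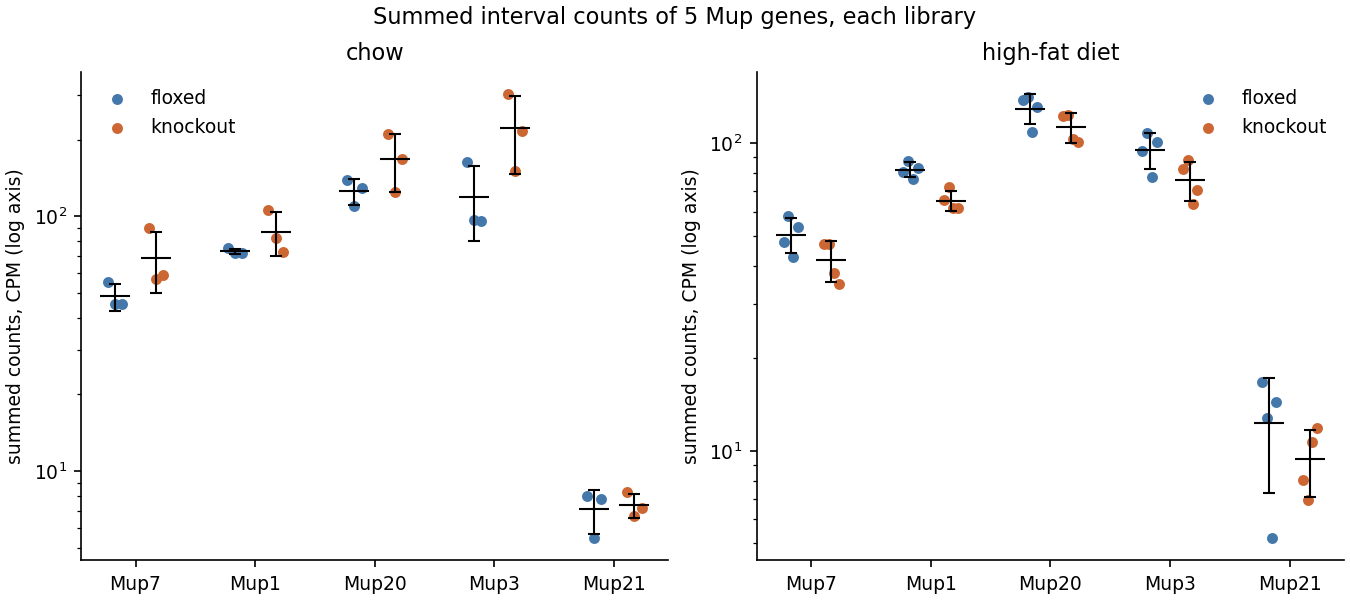
Summed counts of the 5 genes in CPM (vertical log axis), chow left and HFD right, with 1 point per library and the mean ± SD in black. On chow the mean of knockouts (orange) lay above that of floxed mice (blue) for all 5 genes, most for Mup3 (222 against 119 CPM), and on HFD it lay below for all 5.

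On chow, the genes stood higher in knockout than in floxed livers without any passing the test. The largest difference was at Mup3, whose counts, added over its 16 intervals, were 301, 150 and 216 CPM in knockouts 1, 2 and 3 and 163, 96.8 and 95.9 CPM in floxed mice 1, 2 and 3. Floxed 1 was above knockout 2, and otherwise the genotypes were separate. All 16 intervals came from peak calls in knockout livers. Fold changes below are log2 of knockout over floxed with the standard error (SE) of the fit, and a feature is called at an adjusted p under 0.05 over the whole table. Mup3 had a fold change of 0.91 (SE 0.26, edgeR adjusted p = 0.717). Leaving out 1 library at a time moved it between 0.63 and 1.21. With the replicate number as a block it was 0.90 (SE 0.10) and was called, at an adjusted p of 0.0291. Same-numbered chow libraries deviated together, clearly only for the shallow ones numbered 2, as described with the processing. The numbers are not stated to mark pairs.

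The other summed counts on chow differed less. Mup7 had 90.0, 57.0 and 58.9 CPM in knockouts and 55.3, 45.1 and 45.1 CPM in floxed mice, a fold change of 0.50 (SE 0.17, adjusted p = 0.717) and the only sum whose groups did not overlap. Mup20 had 211, 125 and 168 CPM against 139, 110 and 129 CPM, a fold change of 0.41 (SE 0.17, adjusted p = 0.717). Knockout 1 was the highest library at all 5 genes. Without it the fold change was 0.26 for Mup7 and 0.22 for Mup20. Mup1 had 106, 82.0 and 72.6 CPM against 75.0, 72.1 and 71.7 CPM, with a fold change of 0.25 (SE 0.13, adjusted p = 0.717) that was 0.086 without knockout 1. Mup21, with 1 interval, had 8.24, 6.66 and 7.16 CPM against 7.95, 5.46 and 7.79 CPM, a fold change of 0.05 (SE 0.21, adjusted p = 0.942) whose sign turned without knockout 1 (-0.035) or floxed 2 (-0.093). edgeR called 0 of the 5 sums and DESeq2 0, with 3 at an unadjusted p under 0.05. Of 15928 genes tested in this way edgeR called 0.0% and DESeq2 called 37, and 6.57% had an unadjusted p under 0.05. At 960 of them every knockout was above every floxed library.

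By interval, edgeR called 0 of 46 on chow, where 0.0227% of all intervals were called, with 20 at an unadjusted p under 0.05 (all higher in knockouts) and 5 called by DESeq2. Over all intervals 6.77% had an unadjusted p under 0.05, and DESeq2 called 544 of 88203. The 20 became 8 without knockout 1 and 30 without knockout 2. Fold changes were above 0 at 41 of the 46 and their median was 0.51, against 49.4% above 0 and a median of -0.003 over all intervals. In 12 of the 46 every knockout was above every floxed library, and over all intervals this share was 5.63%. The intervals are not independent of each other and were not picked evenly: 43 of the 46 came from peak calls in knockout livers, against 49.9% of the whole table. The part of that choice in the counts was not tested.

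The highest Mup3 fold changes on chow lay inside the gene and just beyond its far end. From 62082842 to 62087557 there were 7 consecutive intervals, 6 with a midpoint inside the gene and 1 within 500 bp of it, with fold changes of 1.09 to 1.34 (adjusted p = 0.281 to 0.554). Inside the gene the highest was 1.33. Every Mup3 interval on chow, these included, came from a peak call in knockout livers, and the part of that choice in the counts was not tested. At the interval with the highest mean, just beyond the gene's far end (62082842-62083342), knockouts had 51.0, 24.1 and 32.9 CPM and floxed mice 24.1, 10.3 and 8.05 CPM. Its fold change was 1.34 (SE 0.37, adjusted p = 0.413, and 0.044 with the replicate block). At the interval over the start site (62087057-62087557), which covers the promoter shown above, knockouts had 36.6, 17.1 and 26.7 CPM and floxed mice 15.6, 7.34 and 9.21 CPM. There all knockouts were above all floxed mice, with a fold change of 1.32 (SE 0.30, adjusted p = 0.281, 0.0273 with the replicate block and 0.00237 with DESeq2).

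The same libraries led at each of these intervals. Floxed 1 was the highest floxed library at 7 of the 7 and knockout 1 the highest library of all at 7 of the 7, and all knockouts were above floxed 2 and floxed 3 at 7 of the 7. Added over the 7 intervals, knockouts had 184, 87.2 and 125 CPM and floxed mice 86.6, 41.9 and 34.5 CPM. Beyond the start, the 9 Mup3 intervals from 0.769 to 16.3 kb away had smaller fold changes, from 0.79 at the nearest to 0.18 at the farthest, and none was called.

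**Figure D2:**
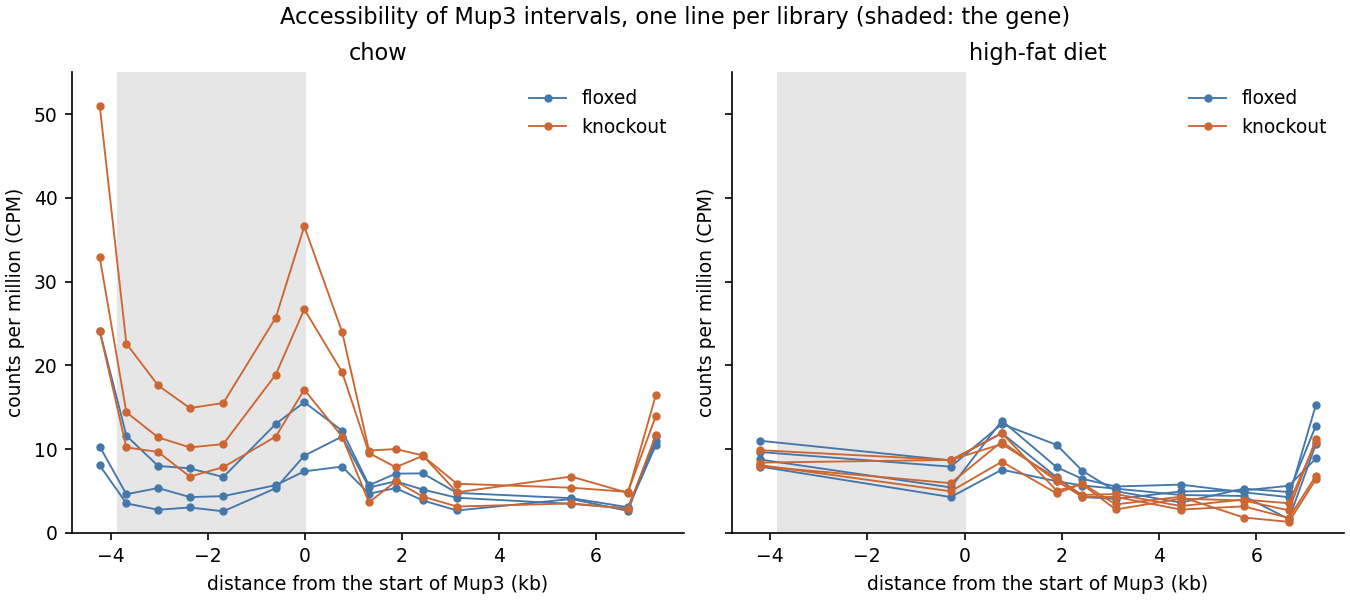
CPM at intervals of Mup3 (vertical axis) by distance of the midpoint from the gene's start (horizontal axis, kb), with the gene shaded and 1 line per library; intervals beyond 8 kb are left out. On chow the knockout lines (orange) reached 51.0 CPM and the floxed lines (blue) 24.1 CPM at the interval just beyond the gene's far end, and 36.6 and 15.6 CPM inside the gene, whereas on HFD the lines of both genotypes overlapped over the gene.

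Other named intervals on chow showed smaller differences or lower levels. Below Mup7 (60065717-60066217), 0.502 kb from its lower bound, knockouts had 9.74, 6.33 and 7.54 CPM and floxed mice 3.76, 3.93 and 3.15 CPM, without overlap. The fold change was 1.14 (SE 0.22, adjusted p = 0.18), and DESeq2 called it (adjusted p = 0.00334). The highest Mup7 interval (60079882-60080382), 9.66 kb beyond its start, had 35.2, 24 and 22.1 CPM against 25.5, 16.7 and 20 CPM. The genotypes overlapped there, at a fold change of 0.38 (SE 0.20, adjusted p = 0.759). At Mup20 the highest interval (62026286-62026786), inside the gene, had 38.3, 23.0 and 31.9 CPM against 24.6, 22.8 and 23.9 CPM, a fold change of 0.39 (SE 0.17, adjusted p = 0.733).

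The Mup20 interval with the lowest p on chow (62057434-62057934), 3.54 kb beyond the upper bound, had 5.74, 3.64 and 7.25 CPM against 3.54, 2.05 and 3.12 CPM, a fold change of 0.93 (SE 0.30, adjusted p = 0.539). For Mup1 the highest interval (60511514-60512014) had 30.8, 24 and 19.6 CPM against 21.6, 16.8 and 17.6 CPM, a fold change of 0.41 (SE 0.18, adjusted p = 0.734). Its lowest p (60521327-60521827) went with 16.7, 10.4 and 13.0 CPM against 8.05, 9.33 and 9.92 CPM, a fold change of 0.56 (SE 0.19, adjusted p = 0.606). In these 3 intervals the genotypes were separate at the Mup20 interval and at the second Mup1 interval. Without knockout 1 the highest intervals of Mup7, Mup20 and Mup1 had fold changes of 0.15, 0.21 and 0.22, and the second Mup1 interval 0.37, while that of Mup7 was 0.25 without floxed 2. The single Mup21 interval, over its promoter (62150670-62151170), differed by 0.07 (SE 0.20, adjusted p = 0.943).

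On HFD the direction was the opposite: all 5 sums were lower in knockouts, and 1 interval, inside Mup20, fell. For Mup1 the summed counts were 65.4, 71.9, 61.4 and 61.8 CPM in knockouts 1 to 4 and 80.9, 87.7, 76.7 and 83.4 CPM in floxed mice 1 to 4. Every knockout was below every floxed mouse, and the fold change was -0.34 (SE 0.08, edgeR adjusted p = 0.0748, DESeq2 0.0277). Without floxed 3 it was -0.37 and called (adjusted p = 0.0272). Mup3 had 82.4, 88.0, 63.3 and 70.3 CPM against 94.7, 108, 77.6 and 101 CPM, with overlap through floxed 3, and a fold change of -0.32 (SE 0.11, adjusted p = 0.248). Without floxed 3 it was -0.41 and called (adjusted p = 0.04).

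The remaining HFD sums overlapped between genotypes. Mup7 had 46.9, 47.1, 37.9 and 34.8 CPM against 47.7, 57.9, 42.8 and 53.3 CPM, a fold change of -0.27 (SE 0.11, adjusted p = 0.401). Mup20 had 123, 124, 103 and 101 CPM against 138, 141, 109 and 131 CPM, a fold change of -0.21 (SE 0.09, adjusted p = 0.453). Floxed 3 was the lowest floxed library at all 5 genes. Mup21 had 8.05, 6.9, 10.7 and 11.9 CPM against 16.7, 12.8, 5.21 and 14.4 CPM, a fold change of -0.40 (SE 0.26, adjusted p = 0.668) that was -0.22 without floxed 1 and -0.64 without floxed 3. edgeR called 0 of the 5 sums and DESeq2 1 (Mup1), with 4 at an unadjusted p under 0.05. Over all 16276 genes edgeR called 0.344% and DESeq2 called 124, and 1627 had an unadjusted p under 0.05. At 417 of the 16276 every knockout was below every floxed mouse.

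The interval called on HFD lay inside Mup20 (62020451-62020951), and the gene table gives no exons. It came from a peak call in floxed livers, and the part of that choice was not tested. Knockouts 1 to 4 had 8.37, 8.27, 6.27 and 6.57 CPM and floxed mice 13.8, 13.5, 11.2 and 14.1 CPM. Every knockout was below every floxed mouse, and the interval fell by 0.83 on the log2 scale (SE 0.18, adjusted p = 0.0162). It did not pass without knockout 3 (adjusted p = 0.0806), knockout 4 (0.0843), floxed 2 (0.0531) or floxed 4 (0.078). This was 1 of 44 member intervals called, beside 0.751% of all intervals called in either direction and 0.303% called lower.

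**Figure D3:**
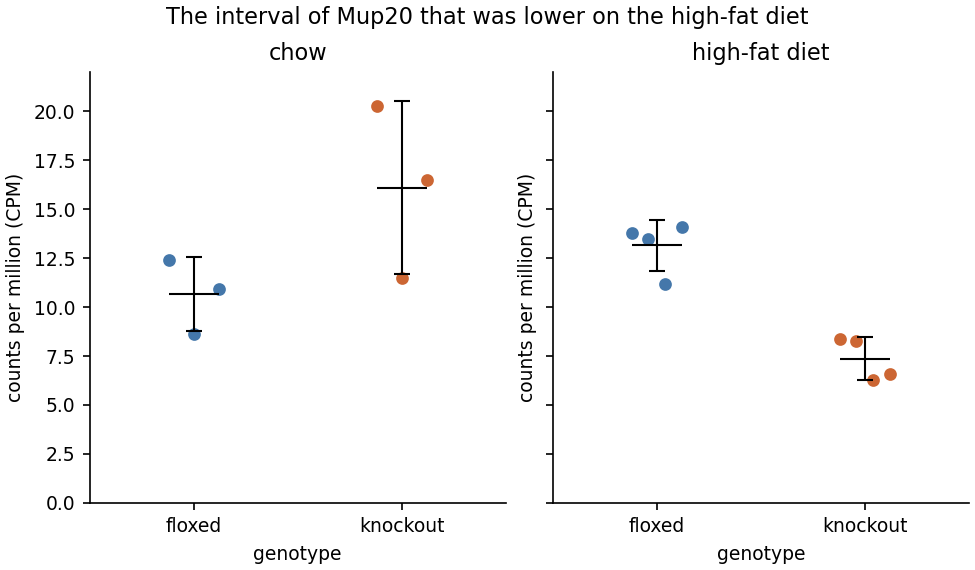
CPM at the Mup20 interval that fell on HFD (right) and at its matched interval on chow (left), with 1 point per library and the mean ± SD in black. On HFD the 4 knockouts sat between 6.27 and 8.37 CPM, below the floxed mice at 11.2 to 14.1 CPM, and on chow the knockouts sat between 11.5 and 20.3 CPM and the floxed mice between 8.65 and 12.4 CPM.

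Fold changes were below 0 at 36 of the 44 HFD intervals, with a median of -0.22 against -0.004 over all intervals. At an unadjusted p under 0.05 there were 11, all lower, against 10.2% of all intervals. The 11 became 4 without floxed 2 or floxed 4, 6 without knockout 3 and 7 without knockout 4. Every knockout was below every floxed mouse at 4 of the 44, against 2.5% of all intervals, and above at 1. On this diet 34 of the 44 intervals came from peak calls in floxed livers and 10 from knockout calls, and the part of that choice was not tested either.

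Over Mup3, the intervals at the far end and near the start overlapped between genotypes on HFD. At the far end (62082855-62083355) knockouts had 9.87, 8.38, 8.1 and 7.95 CPM and floxed mice 11.0, 9.65, 7.92 and 8.76 CPM, a fold change of -0.12 (SE 0.18, adjusted p = 0.891). The 1 interval inside the gene (62086784-62087284) had a fold change of 0.11 (SE 0.23, adjusted p = 0.931). The highest Mup3 interval (62087834-62088334), 0.767 kb beyond the start, had 11.9, 10.6, 8.49 and 10.9 CPM against 11.9, 13.0, 7.54 and 13.4 CPM, a fold change of -0.13 (SE 0.19, adjusted p = 0.882) that ran from -0.28 without floxed 3 to -0.046 without floxed 4. The lowest p at Mup3 lay 16.3 kb beyond the start (62103323-62103823), with 5.04, 7.61, 4.57 and 5.43 CPM against 8.09, 7.31, 8.29 and 9.91 CPM, a fold change of -0.56 (SE 0.21, adjusted p = 0.282).

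Among the central genes, the Mup7 interval 19.5 kb beyond its start (60089746-60090246) had 6.97, 6.95, 4.96 and 5.93 CPM in knockouts and 9.55, 13.7, 7.29 and 10.9 CPM in floxed mice. The groups did not overlap and the fold change was -0.74 (SE 0.21, adjusted p = 0.0907, and 0.0241 without floxed 3). The Mup1 interval 0.765 kb beyond the upper bound (60502475-60502975) had 5.04, 5.96, 4.83 and 4.29 CPM against 9.22, 9.85, 4.9 and 9.45 CPM. Floxed 3 alone lay among the knockouts there, and the fold change was -0.73 (SE 0.22, adjusted p = 0.146, and 0.0231 without floxed 3).

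The most open intervals of Mup1, Mup7 and Mup20 were not called on HFD. Mup1 (60511479-60511979) had 13.8, 13.3, 17.0 and 11.6 CPM against 15.2, 18.5, 17.8 and 17.3 CPM, a fold change of -0.31 (SE 0.15, adjusted p = 0.496). Mup7 (60079895-60080395) had 18.7, 17.5, 15.4 and 12.6 CPM against 17.2, 19.9, 14.7 and 22.1 CPM, a fold change of -0.20 (SE 0.15, adjusted p = 0.727) that was -0.097 without knockout 4 and -0.099 without floxed 4. Mup20 (62026285-62026785) had 21.2, 14.4, 14.9 and 14 CPM against 21.6, 22.2, 17.2 and 20 CPM, a fold change of -0.33 (SE 0.15, adjusted p = 0.443, and -0.49 without knockout 1). In all 3 the genotypes overlapped, at Mup20 through knockout 1. Over the Mup21 promoter (62150673-62151173) the values were 4.72, 4.08, 6.27 and 8.08 CPM against 10.6, 7.22, 4.4 and 10 CPM, a fold change of -0.49 (SE 0.25, adjusted p = 0.512).

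**Figure D4:**
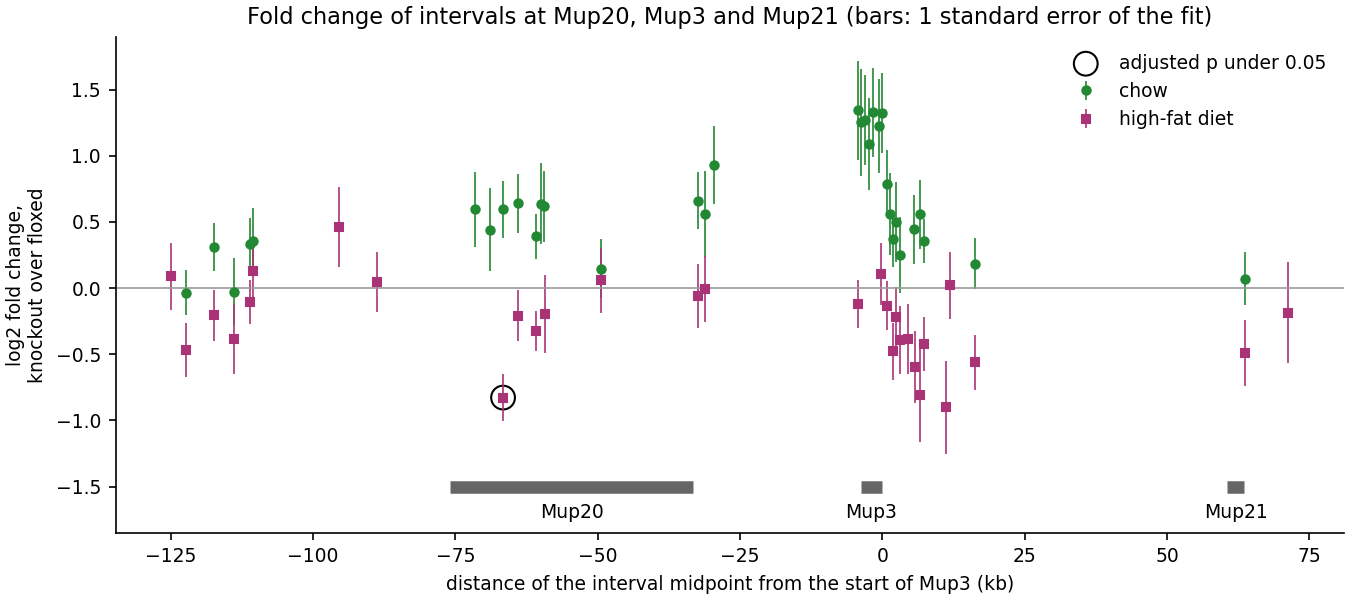
Log2 fold change of knockout over floxed (vertical axis, bars of 1 SE) at intervals of Mup20, Mup3 and Mup21 by distance from the start of Mup3 (horizontal axis, kb), chow in green and HFD in purple, with genes as grey bars. The chow values were 1.09 to 1.33 inside Mup3 and peaked at 1.34 just beyond its far end, and the circled HFD interval inside Mup20 (-0.83) was the only one called.

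Whether the genotype difference itself changed with diet was tested on intervals present in both tables, 34 of them members, as the HFD effect minus the chow effect in a fit of all 14 libraries. Of these, 27 were above 0 on chow and below 0 on HFD, against 25.2% of 73945 matched intervals. The difference was below 0 at 33 of the 34, with a median of -0.69 against 0.01 over all, and 18 had an unadjusted p under 0.05 (10 without chow knockout 1), against 7.44% over all. The members came mostly from knockout peak calls on chow (43 of 46) and from floxed peak calls on HFD (34 of 44). The part of that choice in this difference was not tested, and the 34 intervals are not independent of each other. Only the Mup20 interval was called, beside 0.183% of all matched intervals. On chow that interval (62020478-62020978) had 20.3, 11.5 and 16.5 CPM in knockouts and 12.4, 8.65 and 10.9 CPM in floxed mice, a fold change of 0.60 (SE 0.22, adjusted p = 0.645). Its difference between diets was -1.40 (SE 0.27, adjusted p = 0.0172).

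That difference did not pass without chow knockout 1 (adjusted p = 0.0975), HFD knockout 3 (0.0549), HFD knockout 4 (0.0577) or HFD floxed 4 (0.0539). The next members were the Mup7 interval 19.5 kb beyond the start, with a difference of -1.32 (SE 0.31, adjusted p = 0.0888), and the interval at the far end of Mup3, with -1.44 (SE 0.39, adjusted p = 0.205). DESeq2 called the former too (adjusted p = 0.0215). With the replicate block both were called, at -1.26 (adjusted p = 0.0268) for Mup7 and -1.54 (adjusted p = 0.00331) for Mup3. The replicate numbers are not stated to mark pairs in either diet. Without chow floxed 1 the Mup3 difference was -2.08 and called (adjusted p = 0.00458), and the Mup7 difference was called without chow knockout 2 (-1.52, adjusted p = 0.0173) or HFD floxed 3 (-1.45, adjusted p = 0.045). With counts of matched intervals added per gene, the difference was -1.04 (SE 0.24, adjusted p = 0.197) for Mup3, -0.75 (SE 0.22, 0.354) for Mup7 and -0.62 (SE 0.19, 0.417) for Mup20. It was -0.59 (SE 0.15, 0.25) for Mup1 and -0.53 (SE 0.36, 0.846) for Mup21. edgeR called 0 of the 5, with 4 at an unadjusted p under 0.05, and DESeq2 was not run on these sums. Over all 15308 genes with matched intervals edgeR called 4 lower and 1 higher, and 6.78% had an unadjusted p under 0.05.

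Most other Mup genes had fold changes of the same sign as the 5 genes in each diet. On chow 13 of the 17 others with intervals were above 0 on summed counts, with a median of 0.15 against 0.41 for the 5 described genes and -0.01 over all genes. Neither edgeR nor DESeq2 called any of the 17, and 0 had an unadjusted p under 0.05. On HFD all 17 were below 0, with a median of -0.29 against -0.32 for the 5 genes and -0.001 over all genes. Mup-ps16, Mup11 and Mup13 fell on HFD, by 0.56 (SE 0.09, adjusted p = 0.0105), 0.43 (SE 0.08, 0.0162) and 0.53 (SE 0.10, 0.0182) on the log2 scale.

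Mup11 shows the separation on HFD, with 70.0, 61.6, 59.3 and 59.6 CPM in knockouts and 84.9, 91.7, 79.5 and 82.2 CPM in floxed mice. On chow Mup11 had 110, 66.2 and 70.2 CPM against 68.2, 61.4 and 65.9 CPM, with overlap and a fold change of 0.34 (SE 0.17, adjusted p = 0.717). The other 7 Mup intervals called on HFD, out of 175, were all lower in knockouts, beside 0.303% of all intervals called lower. Because the central genes are near-identical, their calls may rest on shared reads and are not separate observations.

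**Figure D5:**
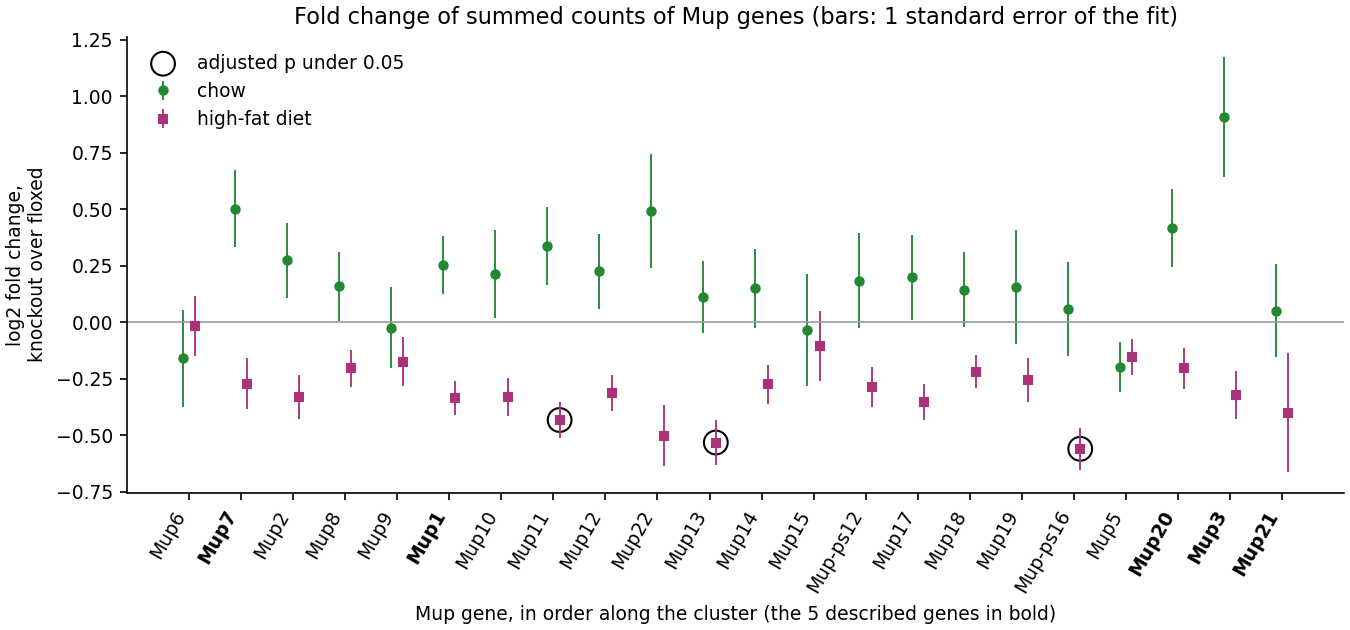
Log2 fold change of summed counts (vertical axis, bars of 1 SE) for the 22 Mup genes with intervals in both tables, in order along the cluster, chow in green and HFD in purple. HFD values were below 0 for all of them and 3 were called (circled), whereas chow values ran from -0.20 at Mup5 to 0.91 at Mup3.

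Some intervals recurred at the same place beside different Mup genes. Of 19 Mup genes between 3700 and 4200 bp long, 8 had a chow interval within 100 bp of the position that Mup1 has at 0.782 kb beyond its upper bound, Mup3 among them, and all 8 were above 0 with a median fold change of 0.24. On HFD 11 of the 19 had one, 10 of them below 0, with a median of -0.43. At 14.6 kb beyond the bound, Mup1 and Mup7 both had an interval on chow (at 9.2 and 8.55 CPM on average), and 4 genes had one on HFD. The matching intervals at the 9.77 to 9.8 kb position numbered 2 on chow and 4 on HFD. None of the intervals within the 100 bp limit was called in either diet. That limit leaves out copies with an interval slightly further off. On chow these included intervals at 9.53 kb for Mup2, 9.56 kb for Mup11 and 9.66 kb for Mup7. The counts of genes sharing a position are therefore not complete.

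Around the cluster, which spans 2.19 Mb, counts overlapped between genotypes in both diets. The cluster held 88.4 intervals per Mb on chow and 106 on HFD, beside 78.0 and 83.0 per Mb in the adjoining 1 Mb on either side on chow and 89.0 and 93.0 on HFD. Counts added over the cluster were 1750 to 2740 CPM in chow knockouts and 1590 to 1910 CPM in chow floxed mice, which overlapped. On HFD they were 1480 to 1740 CPM in knockouts and 1810 to 2200 CPM in floxed mice, which did not. In the adjoining 1 Mb on HFD the sums were 827 to 877 against 822 to 883 CPM on one side and 784 to 817 against 814 to 860 CPM on the other. Of 27 neighbouring genes with intervals, 0 were called on summed counts in either diet by edgeR or DESeq2. An unadjusted p under 0.05 was found at 0 on chow and 5 on HFD, and the median fold change was -0.04 in both. By interval, edgeR called 0 of 159 on chow. On HFD it called 2 of 178, both lower, beside 0.303% of all intervals called lower, and DESeq2 called 2. Every HFD knockout was below every floxed mouse at 3 of the 27 sums and 10 of the 178 intervals, against 2.5% of all intervals.

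Of genes known to act on Mup transcription, none was called by edgeR. All 24 genes listed for growth hormone signalling and Mup control had intervals. edgeR called 0 on chow and 0 on HFD, with 5 at an unadjusted p under 0.05 in each and 1 and 0 called by DESeq2, and the median fold changes were -0.07 and -0.10. Of 21 male-biased liver genes outside the family, 0 were called on chow (6 at an unadjusted p under 0.05, 2 by DESeq2). On HFD Egfr, a growth factor receptor gene, rose by 0.90 (SE 0.12, adjusted p = 0.000844) and 0 fell.

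Of 25 female-biased liver genes, 0 were called on chow (9 at an unadjusted p under 0.05, 2 by DESeq2), and 5 fell and 0 rose on HFD, with a median of -0.31. The sulfotransferase genes Sult2a1 and Sult2a2 fell by 1.04 (SE 0.13) and 1.07 (SE 0.15), and the cytochrome P450 genes Cyp3a41a and Cyp3a41b by 0.62 (SE 0.08) and 0.61 (SE 0.09), with adjusted p of 0.000761, 0.00153, 0.000761 and 0.00153. Each of these pairs consists of close copies whose reads may be split between them. Of the other lipocalin genes, 11 of 20 had intervals on chow and 12 on HFD. None was called by edgeR or DESeq2, with 0 and 4 at an unadjusted p under 0.05. The hepatocyte marker Ttr, the transthyretin gene, fell on HFD by 0.79 (SE 0.11, adjusted p = 0.00152), and no other hepatocyte marker was called in either diet by edgeR. Even so, only 1 of the 12 markers was above 0 on chow (median -0.41, 5 at an unadjusted edgeR p under 0.05, 2 called by DESeq2). On HFD 4 of the 12 were above 0 (median -0.34, 6 at an unadjusted edgeR p under 0.05, 1 called by DESeq2).

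The 5 genes moved together across libraries to different degrees. On chow, log2 CPM of a gene correlated with that of the other 4 added up at Pearson r = 0.966 for Mup7, 0.937 for Mup3, 0.935 for Mup20, 0.779 for Mup1 and 0.598 for Mup21 over 6 libraries. On HFD the values were 0.972 for Mup3, 0.944 for Mup20, 0.933 for Mup7, 0.871 for Mup1 and 0.343 for Mup21 over 8 libraries. Outside the family and over 1 Mb away, the genes most like the sum of the 5 on chow were Etnppl (r = 0.992), Nfkbia (0.991), Rgs8 (0.988), Agtpbp1 (0.985) and Myom1 (0.984), out of 8796 compared. On HFD they were Masp2 (0.993), Aldh1a1 (0.991), Slc9a3r1 (0.981), Cyp2b13 (0.981) and Erc1 (0.978), out of 9455. The 2 lists shared no gene. The points share libraries, depth and genotype, and the highest of so many values over so few libraries are large by selection, so these are descriptions only.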

How the data were processed

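The authors deposited raw read counts for each interval in each library, 1 table per diet, on mm10 per the labels. The submitters' processing notes name MACS2 2.2.7.1, Bowtie2 2.4.2, HOMER 4.11, Trim Galore 0.6.7, DESeq2, bedtools and ChIPseeker without roles. The sources used here do not state how duplicate or multi-mapping reads were treated or whether libraries were pooled for peak calls. HFD columns match single samples; chow columns give only a genotype and a number. Genes came from the RefSeq table of GRCm38.p6 (21896 protein-coding genes).

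Each table was fitted whole with edgeR 4.0.16 (R 4.3.3; TMM, filterByExpr, quasi-likelihood test, Benjamini-Hochberg at 0.05), by interval and on counts added per gene. The effect of genotype was compared between diets on 73945 intervals matched 1 to 1 with at least 50% overlap. DESeq2 1.42.0, other scalings and filters, a 5000 bp assignment limit, a replicate block and leaving out libraries were alternatives. Promoters were aligned pairwise with Biopython 1.88. Tested on simulated counts with log2 changes of 1, edgeR found 68% of changed intervals on chow, 62% on HFD and 29% for the difference between diets, and 95% and 97% of changed gene sums on chow and HFD. The simulated libraries were independent, with the spread typical of a feature's level, and changed features were drawn from the whole table. These rates are therefore not rates for the Mup genes, whose libraries may vary more.

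Deviations of same-numbered knockout and floxed chow libraries correlated at r = 0.184, 0.533 and 0.189, all above the 0.1 set for treating numbers as pairs. The numbers come from the column names and are not stated to mark pairs. Knockout 1 correlated more with floxed 3 (0.278), and knockout 3 about as much with floxed 1 (0.184). The value of 0.533 belongs to the libraries numbered 2, which were the shallowest. On HFD the same-numbered values were 0.0676, 0.131, 0.177 and -0.0105, only some of them above 0.1, so whether the numbers mark pairs there is not known. No 2 libraries were repeats of each other, with a chi-square per degree of freedom of 2.49 or more. Each library is read as 1 animal.

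Named were, for every described gene and diet, the summed counts and the intervals with the highest mean and the lowest p; other Mup genes and list genes that were called, at most 4 a list; and the 5 most correlated genes with at least 3 intervals and 20 CPM. The genes, lists and tests were chosen with earlier results of these data known.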

Additional observations from a re-analysis of the deposited data

Results flagged for a closer look

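At the Mup20 interval from 62020478 the effect of the knockout differed between diets by -1.40 on the log2 scale (SE 0.27, edgeR adjusted p = 0.0172 for the difference itself). The interval came from a knockout peak call on chow and a floxed peak call on HFD, and the part of that choice was not tested. The difference did not pass without chow knockout 1, HFD knockout 3, HFD knockout 4 or HFD floxed 4.

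Among 28 HFD groups of 4 libraries at the described genes, 2 held a library far from the other 3. At the Mup20 interval from 62026285, knockout 1 had 21.2 CPM while the other knockouts had 14.4, 14.9 and 14 CPM. At the Mup1 interval from 60502475, floxed 3 had 4.9 CPM while the other floxed mice had 9.22, 9.85 and 9.45 CPM. By chance about 1 in 20 such groups would hold one.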

How the results depend on the processing

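Of 391 refits of single fold changes of the 5 genes and their named intervals, 360 kept their direction and side of the threshold, 17 passed it newly, 8 no longer passed and 6 reversed. The reversed ones were Mup21 on chow, for its summed counts (-0.035 without knockout 1, -0.093 without floxed 2, -0.034 without both libraries numbered 2, and a range up to 0.145 without single libraries) and its interval (-0.005 and -0.068 without the same single libraries, up to 0.156), and Mup7 on HFD with intervals within 5000 bp only (0.28). All of these were uncalled, and the cause was not tested.

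Chow intervals called among the 46 went from 0 to 5 with DESeq2 and to 2 with the replicate block, and stayed at 0 to 0 when single libraries were left out. Chow sums called went from 0 to 1 with the block, which called the Mup3 sum and no other chow sum of the 5 genes. They ranged from 0 to 0 without single libraries. HFD intervals called went from 1 to 2 with the block, to a range of 0 to 3 without single libraries and to 3 without knockout 1 and floxed 3, an alternative chosen after seeing the data like that without both chow libraries numbered 2. HFD sums called went from 0 to 1 with DESeq2, 2 with the block, 0 to 2 without single libraries and 2 without knockout 1 and floxed 3. For the difference between diets the call count went from 1 to 2 with DESeq2, 3 with the block and 0 to 2 without single libraries. Over the whole tables, calls on chow went from 20 to 544 with DESeq2, 126 with the block, 0 to 604 without single libraries and 333 without both libraries numbered 2. On HFD they went from 795 to 1420 with the block, 304 to 1189 without single libraries and 1883 without knockout 1 and floxed 3. RLE size factors, library totals, the 2 CPM filter, the 5000 bp assignment limit and 80% overlap changed no call of the 5 genes. HFD libraries were shallower, and intervals of 3 to 5 CPM rest on few reads.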
